A study of Mus musculus with 18 samples.

Results

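Acta2, Tagln, Synpo and Rflnb encode an actin and proteins that bind actin or help to bundle it. Their mRNA was followed in C3H10T1/2 mouse fibroblasts under every combination of an adipogenic mix, EGF and TCDD. They are 4 of the 8251 genes with a symbol of their own on the array. Each was taken by its gene symbol in the array's annotation, and each had 1 probe set. The 4 genes were chosen by their intensities across the treatment groups of these same arrays, so their values are a description. Whether each passed the threshold of a fit over all probes is given in the same way, and nothing is supported with it.

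C3H10T1/2 is an established line of fibroblast-like cells that can be turned into fat cells in culture. The design had 8 groups on 18 arrays, all of one cell line, harvested 24 h after reaching confluence and 72 h after serum was last given, and the mRNA on each array was a pool of 6 cultures. The group IDMB + EGF + TCDD received all treatments, and IDMB + EGF, IDMB + TCDD and EGF+TCDD received pairs. IDMB, EGF and TCDD received one each, and UT none. IDMB was a mix of 1 µM BRL49653 (rosiglitazone, an agonist of the fat cell regulator PPARG), 1 µM dexamethasone (a glucocorticoid), 0.5 µM IBMX (which raises cAMP) and 10 µg/mL insulin, present for 24 h. EGF, a growth factor, was present at 10 nM for 24 h. TCDD, a dioxin that activates the aryl hydrocarbon receptor (AhR), was present at 10 nM for 72 h. There were 3 arrays each for IDMB and for UT, and 2 for each of the other 6 groups. The labels do not spell out UT, and nothing states whether replicate pools came from separate experiments, so errors measure the spread between these arrays, which may be technical.

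Fibroblasts hold actin filaments in bundles called stress fibres, and when these bear tension the cells start to make smooth muscle proteins. The switch is carried largely by serum response factor (SRF), which binds DNA motifs called CArG boxes, and by its partner MRTF, which moves to the nucleus when free actin monomers become scarce. TGF-beta pushes cells towards this contractile state, and loss of stress fibres is a known early step of fat cell formation. Acta2, smooth muscle alpha actin, forms the contractile filaments. Tagln, transgelin or SM22 alpha, binds and gathers those filaments. Synpo, synaptopodin, binds actin and alpha-actinin and is best known from kidney podocytes and the dendritic spines of neurons. Rflnb, refilin B, binds filamin and turns it into a protein that bundles actin.

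Promoter sequence is shown for Acta2, which read lower than in UT under every treatment, and Rflnb, which stood out under EGF. Tagln also read lower than in UT under every treatment, but no window was at hand for it. Synpo is not shown. The windows of Acta2 and Rflnb are RefSeq windows of 300 bases, 250 before and 50 after the annotated start. The Acta2 window was chr19:34255324-34255623 and the Rflnb window chr11:76027733-76028032, both in GRCm38.p6 and both on the minus strand. Capitals mark CArG-like boxes with at most 1 G or C in their core, and the sequence TATAA.
Acta2: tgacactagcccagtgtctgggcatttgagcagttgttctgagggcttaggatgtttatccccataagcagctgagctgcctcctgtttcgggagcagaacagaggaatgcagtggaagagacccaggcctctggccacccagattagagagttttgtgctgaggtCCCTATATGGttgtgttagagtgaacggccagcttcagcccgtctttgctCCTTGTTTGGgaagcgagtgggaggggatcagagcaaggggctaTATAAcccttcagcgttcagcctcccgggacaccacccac
Rflnb: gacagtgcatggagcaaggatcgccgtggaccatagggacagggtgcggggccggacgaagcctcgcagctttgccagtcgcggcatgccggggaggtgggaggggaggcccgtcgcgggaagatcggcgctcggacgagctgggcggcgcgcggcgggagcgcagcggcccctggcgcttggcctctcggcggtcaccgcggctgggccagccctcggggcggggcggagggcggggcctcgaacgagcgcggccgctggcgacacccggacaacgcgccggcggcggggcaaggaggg

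The Acta2 window held 2 CArG-like boxes, CCCTATATGG at bases 167 to 176 and CCTTGTTTGG at bases 217 to 226, counted from its 5′ end. It held TATAA at bases 261 to 265, which is past the start that the table annotates at base 251. No exact CArG box and no copy of GCGTG, the core of the AhR binding site, was found on either strand. The Rflnb window had none of these motifs and was rich in G and C, at 77% against 54.7% for Acta2 and a median of 52.7% over all windows. Among 32851 RefSeq windows of mouse genes, 1.63% held an exact CArG box, 9.98% one with at most 1 deviation, 24.9% TATAA and 32.4% GCGTG. These matches describe letters in the windows and say nothing of binding.

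Acta2 was lowest in the groups with IDMB. Its intensity (the deposited brightness of the probe set) was 3037.8 and 3473.7 with IDMB + EGF + TCDD, 3286.7 and 2999.9 with IDMB + EGF, and 2739.0 and 3929.4 with IDMB + TCDD. IDMB arrays read 14034.2, 9112.7 and 11128.7. Without IDMB, Acta2 read 32533.0 and 39421.3 with EGF+TCDD, 42183.6 and 46738.4 with EGF, 34254.7 and 40159.8 with TCDD, and 76660.5, 84662.1 and 67137.7 in UT. Its 9 arrays with IDMB and 9 without did not overlap, and the highest value was 30.9-fold the lowest. In order of mean the groups were UT, EGF, TCDD, EGF+TCDD, IDMB, IDMB + TCDD, IDMB + EGF + TCDD and IDMB + EGF; neighbours overlapped between TCDD and EGF+TCDD and among the last 3. Acta2 stood at the 73.7th to 94.9th percentile of each array with IDMB and at the 98.2nd to 99.4th without.

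Tagln was highest in UT. It read 325.0 and 381.3 with IDMB + EGF + TCDD, 646.2 and 492.4 with IDMB + EGF, 619.6 and 208.0 with IDMB + TCDD, and 2504.5, 1038.8 and 723.1 with IDMB. It read 1005.7 and 588.3 with EGF+TCDD, 625.1 and 449.6 with EGF, 912.8 and 1447.7 with TCDD, and 10505.4, 3641.1 and 4200.5 in UT. All 3 UT arrays were above the other 15, and each treated group overlapped the next in order of mean (IDMB, TCDD, EGF+TCDD, IDMB + EGF, EGF, IDMB + TCDD, IDMB + EGF + TCDD). Its replicates were far apart: the within-group SD was 0.711 on the log2 scale, above that of 93.5% of the probes tested, against 0.221 for Acta2.

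Synpo was lowest with IDMB alone. It read 6377.0 and 6887.2 with IDMB + EGF + TCDD, 4380.5 and 4447.7 with IDMB + EGF, 3068.6 and 1794.7 with IDMB + TCDD, and 804.7, 803.6 and 1262.1 with IDMB. It read 6245.3 and 6081.1 with EGF+TCDD, 5531.6 and 4279.5 with EGF, 7786.6 and 6325.7 with TCDD, and 2471.4, 2788.7 and 4363.7 in UT. All 3 IDMB arrays were below the other 15, and the order of means was TCDD, IDMB + EGF + TCDD, EGF+TCDD, EGF, IDMB + EGF, UT, IDMB + TCDD and IDMB. In that order the first and second groups overlapped, as did EGF with IDMB + EGF and UT with IDMB + TCDD.

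Rflnb was high in 1 group. It read 1193.4 and 1246.7 with IDMB + EGF + TCDD, 1159.2 and 1455.3 with IDMB + EGF, 1018.8 and 835.7 with IDMB + TCDD, and 1173.0, 1204.4 and 753.9 with IDMB. It read 2854.4 and 3064.6 with EGF+TCDD, 11219.1 and 12952.0 with EGF, 3150.5 and 3756.5 with TCDD, and 2022.4, 2191.9 and 3242.0 in UT. Both EGF arrays were above the other 16, and all 9 arrays with IDMB were below all 9 without. After EGF the order of means was TCDD, EGF+TCDD, UT, IDMB + EGF, IDMB + EGF + TCDD, IDMB and IDMB + TCDD. EGF+TCDD overlapped UT, and each of the 4 groups with IDMB overlapped the next.

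**Figure D1:**
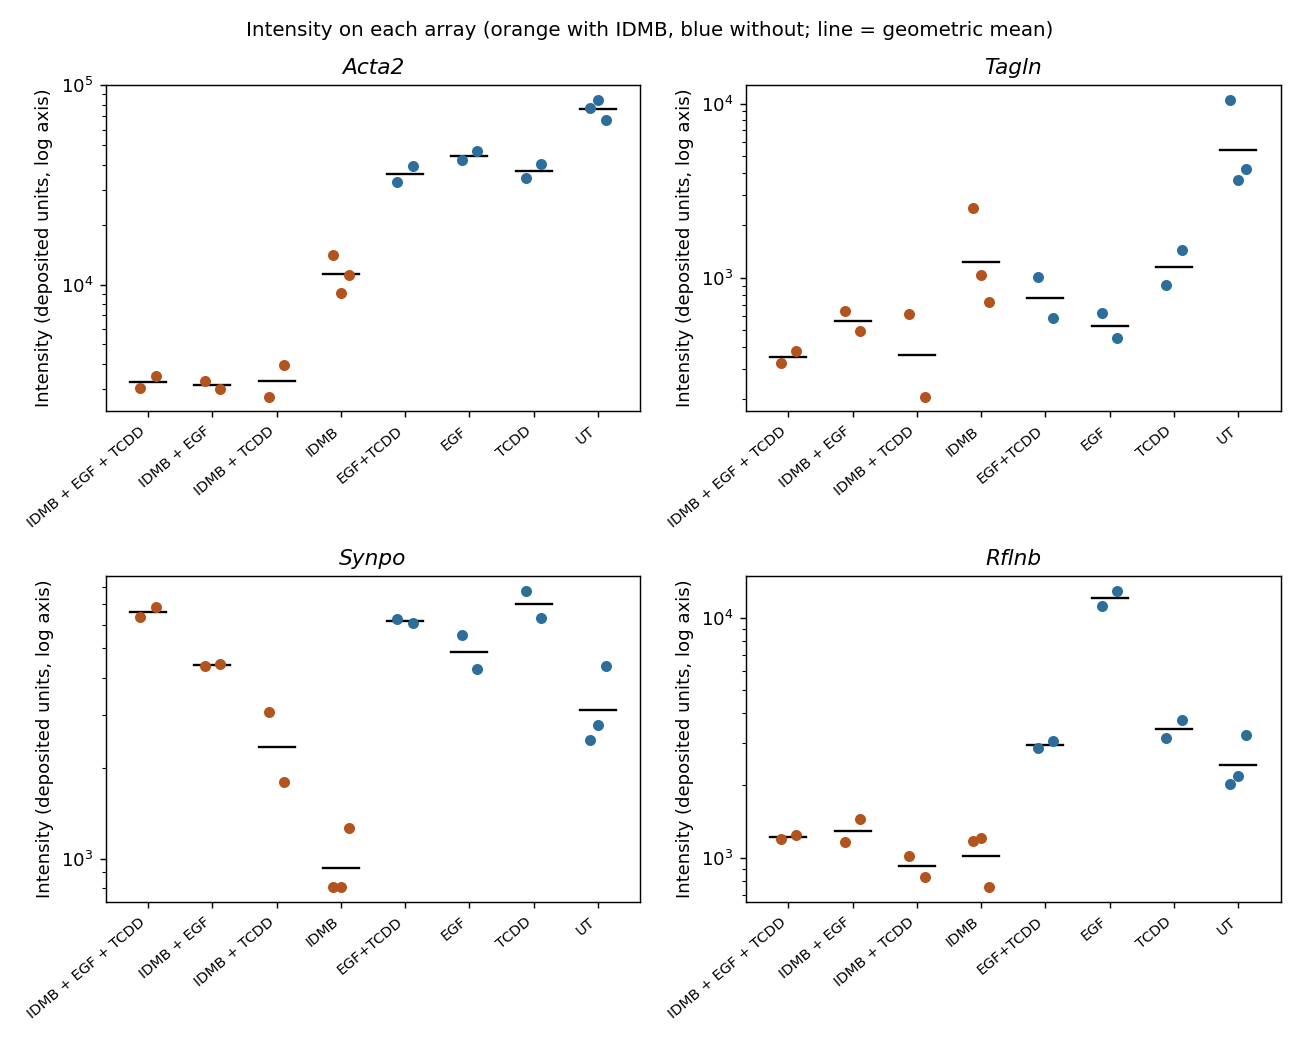
Deposited intensity (log axis) of Acta2, Tagln, Synpo and Rflnb on each of the 18 arrays, by group, with IDMB arrays in orange and the others in blue; points are arrays and lines are geometric means. Acta2 and Rflnb with IDMB lie below all arrays without it, Tagln is highest in UT, Synpo is lowest with IDMB, and the 2 EGF arrays stand apart for Rflnb at 11219.1 and 12952.0.

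IDMB alone lowered the reading of all 4 genes (3 arrays against 3). Acta2 was 6.74-fold lower than in UT (log2 fold -2.75, SE 0.174), Tagln 4.40-fold lower (-2.14, SE 0.500), Synpo 3.33-fold lower (-1.73, SE 0.244) and Rflnb 2.38-fold lower (-1.25, SE 0.222). In each case the 3 IDMB arrays lay below the 3 UT arrays. All 4 were among the probes called (limma adjusted p under 0.05 over all 7134 probes tested), a group that held 14.1% of those probes. Since the genes were picked for these responses, nothing is read from that count. The 4 calls held with any one array left out. In bulk RNA, fewer cells that express a gene and less of its RNA per cell cannot be told apart.

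The IDMB fold differed in size between backgrounds, a difference that was not tested. Acta2 was 11-fold lower in IDMB + EGF + TCDD than in EGF+TCDD, 14.1-fold lower in IDMB + EGF than in EGF, and 11.3-fold lower in IDMB + TCDD than in TCDD. Rflnb was 2.42-fold, 9.28-fold and 3.73-fold lower in the same comparisons, and the first of these calls was lost in 4 of 18 fits with 1 array left out. In the same order, 6.5%, 10.8% and 12.8% of all probes were called. For Synpo the log2 fold was 0.10 (SE 0.299) in IDMB + EGF + TCDD against EGF+TCDD and -0.14 (SE 0.299) in IDMB + EGF against EGF, where 95% intervals ran from -0.53 to 0.74 and from -0.77 to 0.49. With TCDD as the background Synpo was 2.99-fold lower under IDMB (-1.58, SE 0.299), a call lost without the second IDMB + TCDD array. Tagln gave 0.09 (SE 0.613) in IDMB + EGF against EGF and -1.13 (SE 0.613) in IDMB + EGF + TCDD against EGF+TCDD, neither of them called. In IDMB + TCDD against TCDD it gave -1.68 (SE 0.613), called only without the first IDMB + TCDD array or with replicate number in the fit. Averaged with equal weight over the 4 backgrounds, the IDMB difference was -3.38 for Acta2 (SE 0.102), -1.21 for Tagln (SE 0.293), -0.84 for Synpo (SE 0.143) and -1.91 for Rflnb (SE 0.130), all 4 called, where 34.1% of all probes were.

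**Figure D2:**
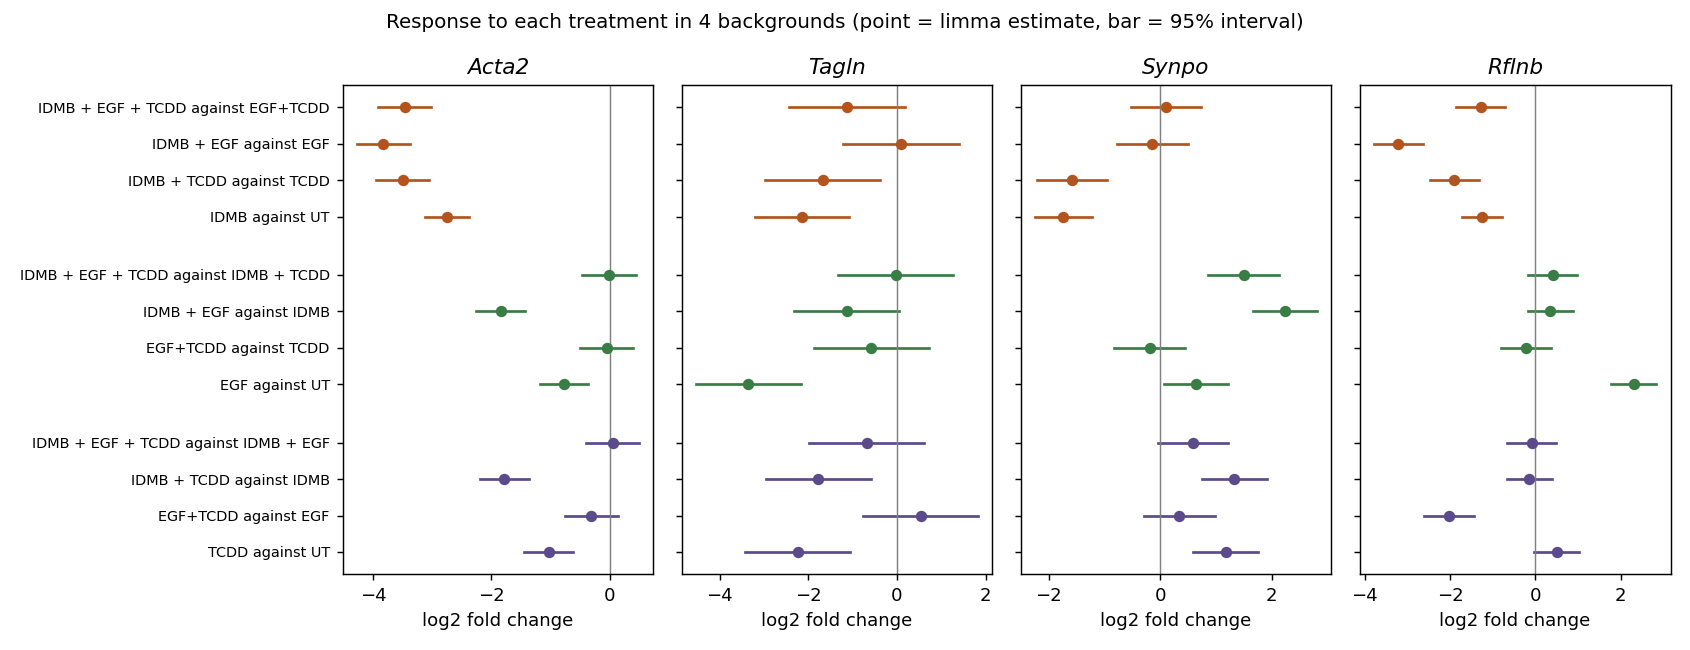
Log2 fold change of each gene (points, limma estimates) with its 95% interval (bars) for IDMB (orange), EGF (green) and TCDD (purple), each added to 4 backgrounds. Acta2 lies far left of 0 for IDMB in every background, Rflnb lies right of 0 for EGF against UT (2.31), and Synpo lies right of 0 for EGF and TCDD added to IDMB alone (2.24 and 1.33).

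TCDD alone moved the genes in different directions (2 arrays against 3). Acta2 was 2.04-fold lower than in UT (log2 fold -1.03, SE 0.195) and Tagln 4.73-fold lower (-2.24, SE 0.559), while Synpo was 2.26-fold higher (1.17, SE 0.273). For Rflnb the fold was 0.50 on the log2 scale (SE 0.248), with arrays that overlapped. The first 3 were called, where 7.68% of all probes were. Those calls were lost without the first TCDD array for all 3 genes, and without other single arrays or the filter on dim probes for Tagln and Synpo. TCDD arrays were compressed at the bright end: the intensity above which the top 0.1% of probes lay was 77274.3 and 115493 on them, against 139730 to 170579 in UT. The part of this in the Acta2 value, which lay at the 98.2nd percentile or above on arrays without IDMB, was not tested. The fold of Acta2 was 1.64 with quantile normalization, which gives all arrays the same distribution.

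EGF alone raised Rflnb and lowered the smooth muscle pair (2 arrays against 3). Rflnb was 4.96-fold higher than in UT (log2 fold 2.31, SE 0.248), a call that held with any one array left out. Tagln was 10.3-fold lower (-3.36, SE 0.559), and its call was lost without the second EGF array. Acta2 was 1.71-fold lower (-0.77, SE 0.195), and its call was lost without either EGF array, without the first or second UT array, with median scaling and with no filter on dim probes. Synpo was 1.56-fold higher with overlapping arrays and was not called (0.65, SE 0.273). These 3 calls stood against 6.17% of all probes.

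With EGF and TCDD together, Rflnb was far below its level with EGF alone. It was 4.08-fold lower in EGF+TCDD than in EGF (log2 fold -2.03, SE 0.272), and this was called, as was 0.28% of all probes. Against UT, Rflnb in EGF+TCDD was 1.22-fold higher with overlapping arrays (0.28, SE 0.248). The EGF difference of Rflnb was thus -0.22 with TCDD and 2.31 without it, 2.53 apart on the log2 scale (SE 0.368). For Tagln the EGF difference was -0.58 with TCDD and -3.36 without it, 2.78 apart (SE 0.830). Both differences share arrays with the folds given above and were not tested. Acta2 in EGF+TCDD was 2.12-fold lower than in UT and Tagln 7.07-fold lower, and both were called, where 5.4% of all probes were. These calls were lost without the first EGF+TCDD array, and that of Tagln also without the second or with no filter. Synpo was 1.98-fold higher than in UT (0.99, SE 0.273) and called, but in only 6 of 18 fits with 1 array left out and in neither of the other scalings.

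On top of IDMB, EGF and TCDD each lowered Acta2 further and raised Synpo. Acta2 was 3.46-fold lower in IDMB + EGF + TCDD than in IDMB alone, 3.58-fold lower in IDMB + EGF and 3.43-fold lower in IDMB + TCDD, and all 3 calls held with any array left out. The 3 groups overlapped: IDMB + EGF + TCDD differed from IDMB + TCDD by -0.01 (SE 0.213, 95% interval -0.47 to 0.44) and from IDMB + EGF by 0.05 (SE 0.213, interval -0.40 to 0.50). The EGF difference of Acta2 within IDMB was therefore -0.01 with TCDD and -1.84 without it, 1.83 apart (SE 0.289), which was not tested. Synpo was 7.09-fold higher in IDMB + EGF + TCDD than in IDMB (2.83, SE 0.273), 4.72-fold higher in IDMB + EGF (2.24, SE 0.273) and 2.51-fold higher in IDMB + TCDD (1.33, SE 0.273). The last call was lost without the first IDMB + TCDD array. Synpo also was 2.82-fold higher in IDMB + EGF + TCDD than in IDMB + TCDD (1.5, SE 0.299), called in 6 of 18 fits with 1 array left out. The background shares were 6.81%, 3.8% and 6.59% for IDMB + EGF + TCDD, IDMB + EGF and IDMB + TCDD, each against IDMB, and 0.28% for the last. None of the 4 genes was called in IDMB + EGF + TCDD against IDMB + EGF or in EGF+TCDD against TCDD, where 0.364% and 3.5% of all probes were.

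Tagln was also lower in each of these groups than in IDMB, without a call: -1.81 in IDMB + EGF + TCDD, -1.13 in IDMB + EGF and -1.78 in IDMB + TCDD (SE 0.559 each). Leaving out the first IDMB + TCDD array or the third IDMB array gave a call for IDMB + TCDD, and its fold moved by as much as 1.73 times in such fits. IDMB + EGF + TCDD was called in 4 of 18 such fits. Rflnb was within 0.35 of IDMB in all 3 groups, on the log2 scale, with overlapping arrays.

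Averaged over the 4 backgrounds, the TCDD difference was -0.77 for Acta2 (SE 0.102), -1.04 for Tagln (SE 0.293) and 0.86 for Synpo (SE 0.143), all called, and -0.44 for Rflnb (SE 0.130), called in 2 of 18 fits with 1 array left out but not in the fit of all, where 5.54% of all probes were called. The Tagln call was kept in 4 of 18 fits with 1 array left out. The EGF difference was -0.67 for Acta2, -1.27 for Tagln, 1.05 for Synpo and 0.71 for Rflnb, with the same SE as above, and all 4 were called, where 13.1% of all probes were. With a measure of RNA quality in the fit (the 3′ to 5′ ratio of beta-actin or of Gapdh control probe sets), limma called 0 probes for the mean EGF difference, against 874 and 614 at an unadjusted p under 0.05. The folds themselves kept their direction: with the actin ratio the mean EGF difference was -0.83 for Acta2, -1.57 for Tagln, 1.15 for Synpo and 0.66 for Rflnb, and with the Gapdh ratio -0.99, -2.00, 1.59 and 0.57 in the same order.

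The 4 genes did not vary together as one set. Over the 18 arrays Pearson's r of the log2 intensities was 0.67 between Acta2 and Tagln, 0.69 between Acta2 and Rflnb and 0.48 between Synpo and Rflnb. It was 0.12 between Acta2 and Synpo, 0.11 between Tagln and Rflnb and -0.24 between Tagln and Synpo. These values describe 18 arrays that share 8 treatment groups, and carry no test.

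Among 5432 other genes, those most like Acta2 over the 18 arrays were Actc1 (r = 0.97), Cnn2 (0.96) and Anxa3 (0.94). Actc1 read 1740.8 to 1963.9 with IDMB + EGF + TCDD, 3564.8 to 4233.6 with IDMB and 11344.1 to 12722.2 in UT. Acta2, Actc1 and Actg2 have nearly the same coding sequence, and whether each probe set reads its own gene only was not tested. Most like Tagln were Meg3 (0.89), Igsf10 (0.89) and Amotl2 (0.86). Most like Synpo were Hdac7 (0.90), Slpi (0.89) and Tapbp (0.88), and most like Rflnb were Penk (0.93), Slc7a5 (0.91) and Tinagl1 (0.90).

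Of a list of other smooth muscle contractile genes, most of those that could be tested fell with IDMB. This list and those below were chosen with earlier results of these data known, so their counts are a description. It held 24 genes besides the 4 genes above. The array had probes for 19, and 14 passed a filter on dim probes. Against UT, 10 of the 14 fell under IDMB and 1 rose, with a median log2 fold of -0.83, where 7.42% of all probes fell, 6.66% rose and the median was -0.01. Among those that fell was Myl9, a regulatory light chain of smooth muscle myosin, which read 1537.2, 1281.9 and 487.8 with IDMB and 7412.8, 5727.7 and 4396.4 in UT (log2 fold -2.53, limma adjusted p = 0.00192). Tpm1, a tropomyosin that lies along actin filaments, fell by 2.34 on the log2 scale (limma adjusted p = 2.98e-07). Cnn2, a calponin, fell by 1.87 (4.6e-05 by limma), Actc1, cardiac alpha actin, by 1.63, and Actg2, smooth muscle gamma actin, by 1.00. The gene that rose was Myl6, an essential myosin light chain, which read 1119.0, 1073.3 and 785.1 with IDMB and 145.8, 191.7 and 300.8 in UT (2.27, limma adjusted p = 0.0283), a call lost when some single arrays were left out. The smooth muscle calponin Cnn1 did not pass the filter, with 55.9 to 549.5 over all arrays. Myh11, Des, Myh10 and Acta1 were on the array but did not pass it either, so the counts leave these genes out. Fibroblast markers fell under IDMB as well, 5 of 9 tested, with a median of -0.85 (5 or 6 with any one array left out), among them Dcn, the matrix proteoglycan decorin, by 2.99, Pdgfrb, a growth factor receptor, by 1.26 and Col1a1, a collagen chain, by 0.85. The part of this shift in the contractile genes was not tested. The count of contractile genes that fell was 7 to 10 with single arrays left out, the lowest without the third IDMB array.

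Genes for actin bundling and crosslinking, those closest in role to Synpo and Rflnb, fell in part. Of 15 tested, 5 fell and none rose under IDMB, with a median of -0.31, where 7.42% of all probes fell and 6.66% rose. Marcks, a membrane protein that crosslinks actin, fell by 2.06 (limma adjusted p = 3.04e-08), Lasp1, a LIM and SH3 domain protein at focal adhesions, by 1.20 and Pls3, a plastin that bundles actin, by 1.17. The alpha-actinin Actn1 gave -0.40 and was not called. Among 27 genes of cytoplasmic actins, actin turnover and focal adhesion, 6 fell and 1 rose, with a median of -0.39, against the same shares. Cav1, the caveolin of membrane pits, fell by 1.43, Tmsb4x, thymosin beta 4, which binds actin monomers, by 1.41, and Cfl2, a cofilin that severs filaments, by 0.88. Gsn, the filament-severing gelsolin, rose (0.71, limma adjusted p = 0.00587). Without the first UT array 3 of this list fell instead of 6. The cytoplasmic actins Actb (-0.59) and Actg1 were not called under IDMB.

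Some regulatory genes moved under IDMB as well. Ccn2, a matricellular protein and MRTF target, read 106.3, 156.0 and 55.4 with IDMB against 1858.8, 997.6 and 849.7 in UT, and fell by 2.98 with values under 143.5 set to that floor. Klf4, a transcription factor that represses smooth muscle genes, read 1921.9, 1216.5 and 1056.0 with IDMB against 7522.7, 9814.3 and 14337.0 in UT, and fell by 2.91 (limma adjusted p = 3.62e-06). Ccn1, a relative of Ccn2, fell by 1.53. Srf itself and Cald1 were not matched by symbol. Of 16 tested genes of TGF-beta signalling, 1 fell, near the 7.42% of all probes, and none rose, where 6.66% of all probes did. That gene was Fst, the activin antagonist follistatin (-1.06), and it was not called without the first IDMB array; the receptor gene Tgfbr2 did not pass the filter.

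**Figure D3:**
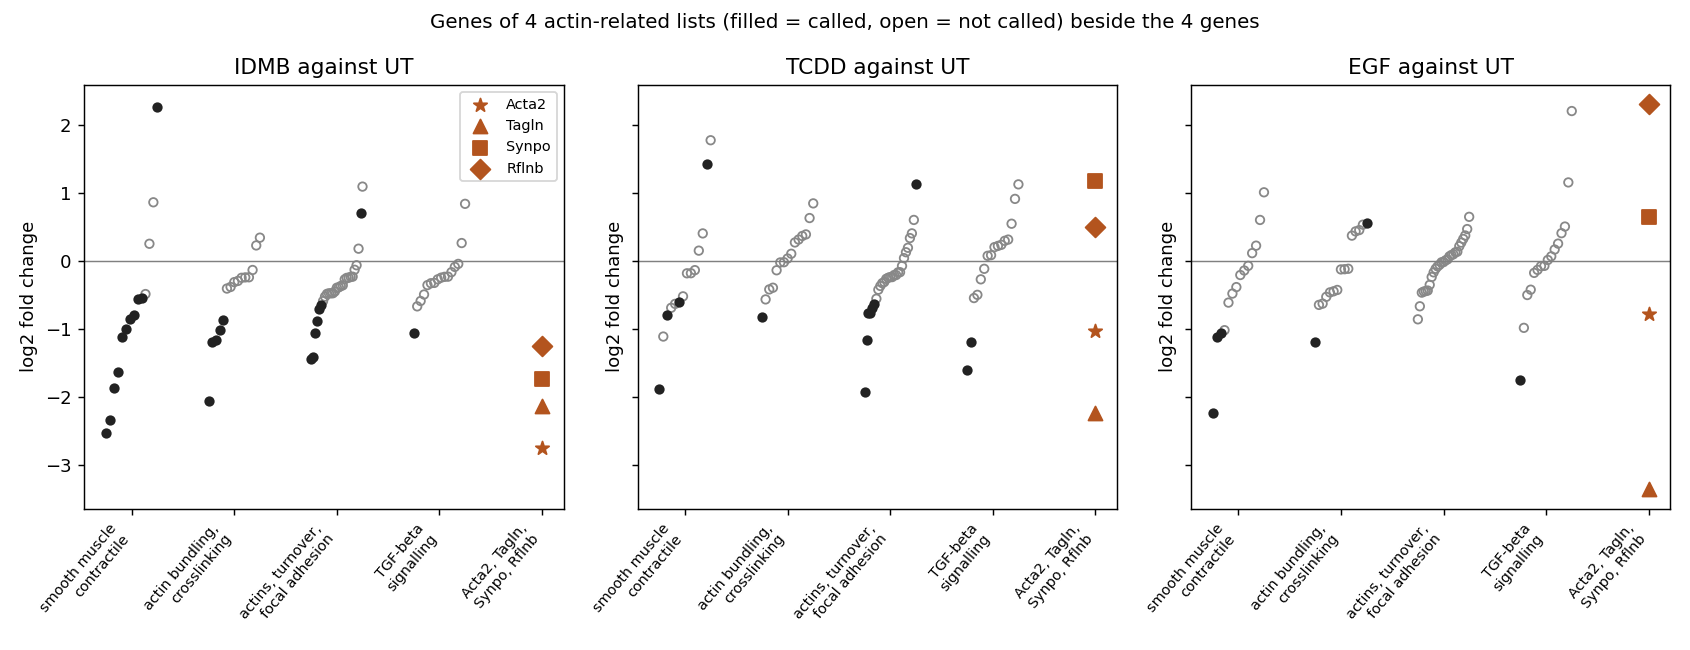
Log2 fold change of each tested gene of 4 lists (filled, called; open, not called) and of Acta2, Tagln, Synpo and Rflnb (orange), for IDMB, TCDD and EGF, each against UT. Filled points lie mostly below 0 under IDMB, where 10 of 14 contractile genes fell; 3 fell under TCDD and 3 under EGF.

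Some genes of the same lists also moved under TCDD or EGF alone. Under TCDD, where 3.8% of all probes fell and 3.88% rose, 3 of 14 contractile genes fell: Myl9 by 1.88, Actc1 by 0.79 and Tpm4, another tropomyosin, by 0.61. Tpm2 rose by 1.44 (limma adjusted p = 0.00039). Of the 27 genes of cytoplasmic actins and their turnover, 6 fell and 1 rose under TCDD, and 1 fell without the second TCDD array. Actb fell by 1.92 by its brighter probe set, but its other probe set gave -0.53 without a call. Vcl, the focal adhesion protein vinculin, fell by 0.76 by one probe set and rose by 1.97 by another, so it has no settled direction. Under EGF, where 2.58% of all probes fell and 3.59% rose, 3 contractile genes fell and none rose: Myl9 by 2.23, Cnn2 by 1.12 and Tpm1 by 1.06. Ccn2 rose under EGF (1.48, limma adjusted p = 0.0459), a call not kept in every fit with 1 array left out, and no gene of the actin turnover list was called. Fhl1, a LIM domain protein of muscle, fell under both TCDD (-1.24, but -0.41 without a call by another probe set) and EGF (-1.48); these calls were lost without the first TCDD array and without the first EGF array. Of the TGF-beta genes, 2 of 16 fell under TCDD, Fst (-1.60) and Inhba, an activin subunit (-1.19), and neither was called without the first TCDD array. Under EGF, Fst alone fell (-1.75), and not without the first EGF array. Without the second TCDD array none of the contractile genes was called lower under TCDD, and without the second EGF array none was under EGF.

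In EGF+TCDD, 3 of 14 contractile genes fell against UT (Cnn2 by 1.05, Tpm1 by 0.87 and Actc1 by 0.79) and Tpm2 rose by 0.79, where 2.44% of all probes fell and 2.96% rose. Fhl1 fell by 2.12 (limma adjusted p = 0.00032). Without the first EGF+TCDD array, none of the contractile genes was called lower.

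On top of IDMB, Myl9 was lower still in the groups with EGF or TCDD as the 1 addition. It was at the floor on both IDMB + EGF arrays and both IDMB + TCDD arrays, hence at least 6.88-fold lower than in IDMB in each (limma adjusted p = 0.0098 and 0.00567). With both added, in IDMB + EGF + TCDD, it read 84.4 and 537.2, which overlapped the IDMB arrays, and was not called (-1.83, limma adjusted p = 0.056). In IDMB + TCDD, 4 of 14 contractile genes fell against IDMB, among them Cnn2 by 1.35 and Actc1 by 0.92, and Cnn3, an acidic calponin, rose by 0.44. In IDMB + EGF, Myl9 was the 1 contractile gene called, and in IDMB + EGF + TCDD, 2 fell (Csrp2, a LIM protein of smooth muscle, by 1.36 and Actc1 by 1.05) and Tpm2 rose by 0.69. Without the second IDMB + TCDD array the count of 4 was 1, and without the first IDMB + EGF array Myl9 was not called. The shares of all probes that fell and rose were 3.53% and 3.06% in IDMB + TCDD, 1.88% and 1.92% in IDMB + EGF, and 3.45% and 3.36% in IDMB + EGF + TCDD, each against IDMB. Klf4 was higher in IDMB + EGF + TCDD than in IDMB (1.53, limma adjusted p = 0.00939), not in every fit with 1 array left out.

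**Figure D4:**
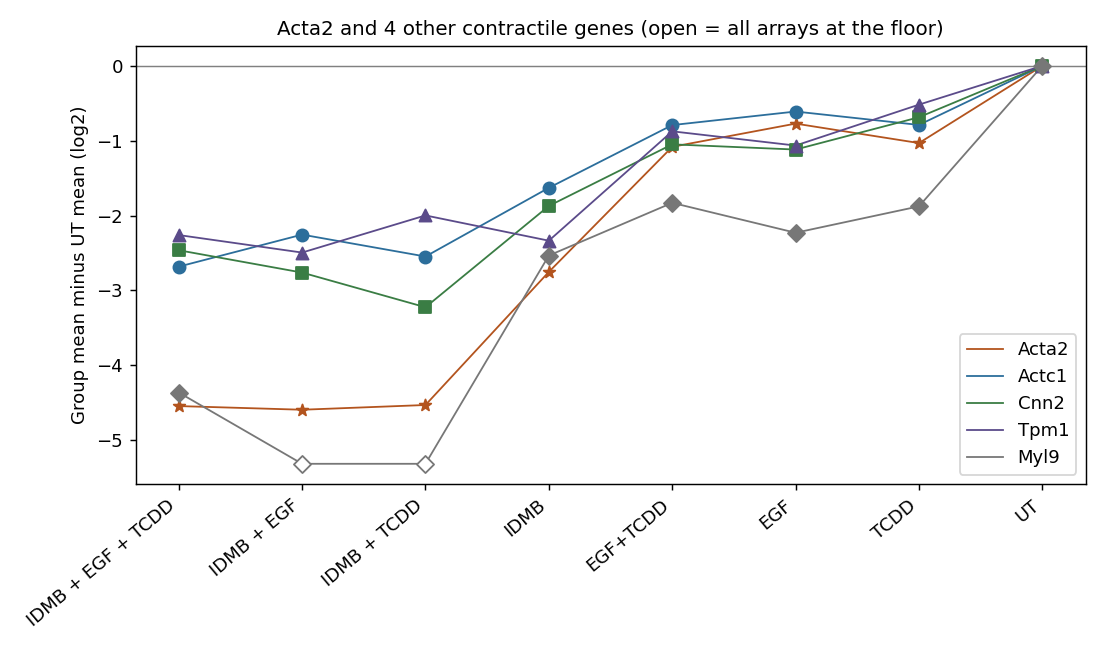
Group means of Acta2, Actc1, Cnn2, Tpm1 and Myl9 minus the UT mean, on the log2 scale, with UT at 0; lines join points of 1 gene to guide the eye, and open points mark groups in which every array was at the floor. The 5 genes are lowest in the groups with IDMB. The means of Acta2, Actc1, Cnn2 and Myl9 are lower still where EGF or TCDD was added to IDMB. Cnn2 and Myl9 with both added overlapped IDMB alone, and the Tpm1 means with additions lie on both sides of it.

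Markers of the labelled cell type were present. All 10 fibroblast markers were on the array, 7 to 9 of them above the array median in each group, and none was at the floor on all arrays of a group. Their summed intensity was 253281 to 286441 in IDMB and 268312 to 354388 in TCDD, both below the 456648 to 502324 in UT; it was 298874 to 432756 in the other groups with IDMB and 452560 to 492010 in EGF+TCDD and EGF. Among them Vim (102.7 to 938.6) and Thy1 (91.7 to 5605.2) were at the floor on 1 and 2 arrays. The brightest, Col1a1, Col1a2 and S100a4, had median percentiles of 99.7, 99.7 and 99.5. TCDD arrays were compressed at the bright end, and the part of this in the sums was not tested. Adipocyte markers (8 of 10 on the array) summed to 2676.4 to 12103.3 with IDMB and 1513.4 to 4134.9 without, and the highest sums were those of IDMB alone, at 9044.8 to 12103.3, where Acta2 was higher than in the other IDMB groups. Skeletal muscle markers, 10 of 10 on the array, summed to 2927.1 to 6308.7 with IDMB and 3691.9 to 5898.8 without, with Myf5 at the floor on all arrays. Myod1 (1063.1 to 2163.7), Myog (489 to 1702.4) and Mylpf (163.5 to 1271.2) were above the floor on every array. Each of the others in this list was at the floor on 1 to 18 arrays. Podocyte markers, 3 of 6 on the array, summed to at most 719.6 with IDMB and 1217 without. Neuron markers, 6 of 6, summed to 7841.3 to 27219.1 with IDMB and 15661.5 to 42458.2 without, and Snap25 was at the floor on all arrays. Tubb3, a tubulin, carried this sum at 7210.4 to 41818.9, while no other neuron marker read above 386.5. Macrophage and endothelial marker sums were at most 13077.9 and 3317 on any array. Cd14 carried the macrophage sum at 3354.4 to 10449.9, while no other macrophage marker read above 1516.9. Adgre1, Ptprc and Itgam were at the floor on 16 arrays each and Lyz2 on 15. The part of other cells in these values was not tested.

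The 3′ to 5′ ratios used as a measure of RNA quality differed between groups, but not in the same way for the 2 control genes. Beta-actin control probe sets near the 3′ end, divided by those near the 5′ end, gave 1.80 to 3.80 on arrays with IDMB and 1.23 to 1.93 without. On TCDD arrays it was 1.23 to 1.43, which overlapped the 1.37 to 1.43 of UT. The same quotient of Gapdh was 0.854 to 0.919 on TCDD arrays, 1.43 to 2.47 on EGF arrays and 2.34 to 2.71 on EGF+TCDD arrays, against 1.25 to 1.52 in UT. With IDMB alone it was 1.19 to 1.73, which overlapped UT. It was 1.05 to 1.09 with IDMB + TCDD, 1.75 to 1.76 with IDMB + EGF and 2.13 to 2.86 with IDMB + EGF + TCDD. With the actin ratio as a covariate the IDMB calls of Acta2, Tagln, Synpo and Rflnb against UT were kept, and 6 of 14 contractile genes fell instead of 10. The same covariate ended the mean IDMB calls of Tagln (-1.65) and Synpo (-0.68), that of Synpo in IDMB + TCDD against TCDD and that of Rflnb in IDMB + EGF + TCDD against EGF+TCDD. With the Gapdh ratio as a covariate the TCDD calls of Acta2 (-0.78), Tagln (-1.68) and Synpo (0.76) against UT were lost. So were their EGF+TCDD calls against UT, with folds that were larger than without it (-1.40, -3.53 and 1.52 in the same order). Either covariate ended the mean TCDD call of Tagln (-1.13 with actin and -1.01 with Gapdh) and the call of Synpo in IDMB + EGF + TCDD against IDMB + TCDD. The part of RNA quality in the folds was otherwise not tested.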

How the data were processed

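Intensities of 12488 probe sets on 18 arrays were taken as deposited by the authors. They are on a linear scale and had been scaled to a common level (means without the outer 2% of 2501.38 to 2501.71, medians 793.35 to 935.7), judged from the values. No source used here names the software, and detection calls were not analysed. Groups, doses and times are as stated in the labels.

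From the deposited intensities, values under 143.5 (the 20th percentile) were set to that floor and log2 was taken. The 66 control probe sets were left out. Of the rest, 10833 had 1 gene symbol, 396 several and 1193 none, and 0 symbols changed when checked through Entrez identifiers. Probe sets were tested if their highest group mean was at least 9.73 on the log2 scale, the median of all values (7134 probe sets, 5436 genes). All 4 members passed and none of their arrays was at the floor. With limma 3.58.1 in R 4.3.3, 1 mean per group was fitted over all 18 arrays, which share 1 estimate of spread (eBayes with a trend, 10 residual and 6.03 prior degrees of freedom), and p-values were adjusted by Benjamini-Hochberg over all probe sets of each comparison. Called means an adjusted p under 0.05, and rose or fell is written of list genes that were called. The number of arrays limits the precision. The procedure was tested on simulated data.

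The members and lists were chosen with earlier results of these data known. The 5 lists held 131 genes, of which 109 were on the array and 90 were tested, each by its probe set with the highest mean; the counts of 1 list are not reported here. Named were the members, preset anchor genes, in each list and comparison up to 3 called genes per direction with the largest change and no overlap of arrays, and the 3 genes most like each member. Deviations of same-numbered arrays of different groups correlated at -0.10 to 0.44 (median 0.05, 57 pairs). Of these pairs 14 lay above 0.1, against 5 of 84 others. Replicate numbers were not taken to pair arrays because the labels do not say that they do. Alternatives were other scaling, another floor, no filter, RNA quality covariates, a replicate block and leaving out each array. Sequences are from RefSeq (GRCm38.p6).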

Additional observations from a re-analysis of the deposited data

Results flagged for a closer look

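Some treatment differences of Synpo and Rflnb had opposite signs in different backgrounds, with every array of the treated group on one side of the group it is set against. Between groups of 2 arrays each, such a lack of overlap has a 33.3% chance of arising without any difference. None of these differences between backgrounds was tested. For Synpo the IDMB log2 fold was 0.105 in IDMB + EGF + TCDD against EGF+TCDD, -1.73 in IDMB against UT and -1.58 in IDMB + TCDD against TCDD, hence 1.84 and 1.69 apart. The EGF log2 fold of Synpo was 2.24 in IDMB + EGF against IDMB, 1.5 in IDMB + EGF + TCDD against IDMB + TCDD and -0.188 in EGF+TCDD against TCDD, hence 2.43 and 1.69 above the last. For Rflnb the EGF log2 fold was 2.31 in EGF against UT, 0.403 in IDMB + EGF + TCDD against IDMB + TCDD and -0.218 in EGF+TCDD against TCDD, hence 2.53 and 0.621 above the last. The folds of 0.105, -0.188 and -0.218 are smaller than their SE (0.299 for Synpo and 0.272 for Rflnb), so their sign is not settled. The Rflnb fold of 0.403 (SE 0.272) was not called, and its 95% interval of -0.174 to 0.979 holds both signs. Its sign is not settled either, so the difference of 0.621 is between folds of unsettled sign.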

How the results depend on the processing

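No fold of Acta2, Tagln, Synpo or Rflnb that was called changed sign under any alternative. Of 68 folds, 39 were called, and of these 37 stayed called with median scaling, 37 with quantile normalization, 39 with the lower floor, 32 with no filter, 28 with the actin ratio, 27 with the Gapdh ratio and 39 with the replicate block. In the comparisons behind these folds, 0.28% to 34.1% of all probes were called. The genes were chosen by these values, so nothing is read from the counts or from the kept signs. Median scaling ended the calls of Acta2 in EGF against UT and Synpo in EGF+TCDD against UT; quantile normalization ended the second of these and Synpo in IDMB + EGF + TCDD against IDMB + TCDD. No filter ended all 3, those of Tagln and Synpo in TCDD against UT, and those of Tagln in EGF+TCDD against UT and for the mean TCDD effect. With no filter more probes are tested; the cause of the other losses was not tested. The largest change of a fold was 2.41 times, with the Gapdh ratio. The block added calls for Synpo in EGF against UT and for Tagln in IDMB + TCDD against IDMB, IDMB + EGF + TCDD against IDMB and IDMB + TCDD against TCDD. The labels do not say that replicate numbers pair arrays, and they were not taken to. Of 57 same-numbered pairs, 14 correlated above 0.1, against 5 of 84 others, and 13 of 18 arrays correlated best with their own number. Deviations within a group of 2 arrays are mirror images, so these pairs and arrays are not separate counts. Counts of all called probes moved by over 1.5 times as follows. With the actin ratio there were 482 in IDMB against UT (1004 without it), 176 in EGF against UT (440), 72 in EGF+TCDD against UT (385), 166 in IDMB + EGF against IDMB (271), 45 in IDMB + EGF + TCDD against IDMB (486), 448 for the mean IDMB effect (2432) and 0 by limma for the mean EGF effect (935), with 874 at an unadjusted p under 0.05. With the Gapdh ratio there were 36 in TCDD against UT (548), 189 in EGF against UT, 10 in EGF+TCDD against UT, 267 in IDMB + TCDD against IDMB (470), 98 in IDMB + EGF + TCDD against IDMB and 0 by limma for the mean EGF effect, with 614 at an unadjusted p under 0.05. With no filter there were 338 in TCDD against UT, 184 in EGF against UT, 165 in EGF+TCDD against UT and 309 in IDMB + EGF + TCDD against IDMB. With the replicate block there were 585 in EGF+TCDD against UT and 441 in IDMB + EGF against IDMB. Leaving out 1 array gave 785 to 1049 in IDMB against UT, 114 (without the second TCDD array) to 643 in TCDD against UT, 14 (second EGF array) to 513 in EGF against UT and 46 (first EGF+TCDD array) to 428 in EGF+TCDD against UT. It gave 151 (second IDMB + TCDD array) to 523 in IDMB + TCDD against IDMB, 30 (first IDMB + EGF array) to 305 in IDMB + EGF against IDMB and 119 (second IDMB + EGF + TCDD array) to 523 in IDMB + EGF + TCDD against IDMB. For the mean effects it gave 2080 to 2460 (IDMB), 260 (second IDMB + EGF + TCDD array) to 462 (TCDD) and 463 (second TCDD array) to 1018 (EGF). With median scaling the share of called probes that were higher was 36.2% in TCDD against UT (50.5% without it) and 42.6% in EGF+TCDD against UT (54.8% without it).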
